A study of Drosophila melanogaster with 53 samples.

Results

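A set of 116 fly genes known mainly by number is described here, chosen from 15222 genes for being abundant in unirradiated males and nearly lost after the highest radiation dose. Each has a FlyBase symbol of CG and digits, the working label of a predicted gene that has received no other symbol. Each averaged at least 2000 normalized counts over the 3 unirradiated control libraries of day 10, and at most 1/32 of that level over the 3 libraries of flies given 20,000 R at day 10. Of 5720 genes with such a symbol, 559 reached the control level, and 116 of these met both limits while 443 did not. A further 70 genes with another kind of symbol met both limits. Because the 20,000 R and control libraries of day 10 chose the genes, their difference at that day is given as a description and was not tested.

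The libraries were made from messenger RNA of whole adult Drosophila melanogaster males, irradiated 2 days after eclosion. Males were left unirradiated or received 10, 1,000, 5,000, 10,000 or 20,000 R (roentgen, a unit of exposure to ionizing radiation), and were frozen 2, 10 or 20 days later. Each combination of dose and day had 3 libraries, apart from unirradiated males at day 20, which had 2. The labels name no strain or genotype and do not say whether a library held 1 fly or a pool, and the spread behind each p-value is that among these libraries, which may be technical.

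In the fly testis, spermatogonia divide and become spermatocytes, which grow for days before meiosis and transcribe a large set of genes that few other tissues use. Much of that RNA is stored and translated later, while spermatids build the sperm tail and repack their chromatin. Complementary DNA libraries made from dissected testes supplied many transcripts of the fly gene catalogue, and many testis genes still carry only a CG number.

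The name "uncharacterised" rests on the symbol alone. RefSeq's annotation of fly genome Release 6 lists older names for some of the 116, among them OGDH for CG33791, CS for CG14740, AK-3 for CG4546, PUT2 for CG6661, SPRK2 for CG8565, Tes37 for CG31468 and Tes88 for CG31624. The same table lists a clone name from a testis cDNA library (prefix AT or bs) for 32 of the 116 genes (27.6%). Such a name is listed for 12 of the 70 other genes that met both limits (17.1%), for 4 of the 443 equally abundant CG genes that did not (0.903%), and for 362 of 11527 protein-coding genes tested (3.14%). "Lost" also needs a limit: all 116 genes kept a value above 0 in each of the 53 libraries, those of 20,000 R included.

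All 116 genes are annotated as protein-coding in Ensembl release 115, and their gene structures are compact. Their annotated exons cover a median of 1540 bases, with a range from 389 in CG31226 to 5663 in CG18170, against a median of 1866 over all protein-coding genes tested. A single exon block was annotated for 38 genes (32.8%), against 15.2% of all protein-coding genes tested. At most 3 blocks were annotated for 88 genes (75.9%), against 49.8%. Few blocks were not particular to the 116. Of the 70 genes with another symbol that met both limits, 30% had 1 block and 78.6% at most 3. The X chromosome held 12 of the 116 (10.3%), against 16.3% of protein-coding genes tested and 4.29% of those 70 genes. The other 104 lie on the arms of chromosomes 2 and 3, with 33 on 2L, 27 on 2R, 17 on 3L and 27 on 3R. In the annotation's gene order, 21 genes sit directly beside another of the 116, in 10 runs, the longest being CG18449, CG2127 and CG8701. The runs include overlapping pairs that share reads: CG12902 and CG43397, CG9130 and CG9133, CG18170 and CG33791, and CG31542 and CG34277. How often other genes sit side by side in this way was not computed, so no clustering is read from the runs.

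Not every one of the 116 is an independent measurement. CG12902 and CG43397, and likewise CG18170 and CG33791, overlap in the annotation and had identical values in all 53 libraries. CG9130 and CG9133 overlap as well and were identical in 41 libraries, and CG31542 and CG34277 in 14. CG17450, CG32819 and CG32820 do not overlap, yet their recovered reads differed by less than 1% (0.337% to 0.849%). Reads of these genes cannot be assigned to one or the other, and the 116 genes amount to 110 distinct loci by their reads.

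Depth ran from 15.4 to 46.2 M recovered reads per library, and 11213 to 14553 genes had a value above 0. Between 11213 and 12229 genes were above 0 in 6 libraries. They were library b of the day 20 controls, libraries b and c of 10 R at day 2, library c of 10 R at day 10 and at day 20, and library c of 5,000 R at day 20, where letters follow the column order of the table. In those 6 libraries, 7 to 44 of the 116 genes (6.03% to 37.9%) were under 50% of the mean of the group's libraries outside the 6, but so were 21.1% to 43.1% of all genes tested and 4.83% to 23.1% of genes with a day 10 control level of at least 2000. Among day 20 controls and at 10 R on day 2, library a alone lay outside the 6, so the reference there is that library. In 27 other libraries of the same doses, 0 to 6 of the 116 genes were under the 50% level. Library a of 20,000 R at day 10, which entered the choice of genes, stood apart too: its median level over the 116 genes was 84.0, against 42.4 and 36.3 in libraries b and c, and it held the highest value of its group for 84 of the 116. Choosing without it, as an alternative added after seeing the data, would give 128 genes. Markers of yolk and eggshell, which females make, summed at day 10 to 266848 normalized counts in library a of 10 R and 210964 in library c of 10,000 R, against 432 to 660 in controls of that day. The other libraries of those doses held 507 and 572 after 10 R, and 981 and 1335 after 10,000 R. Of that list, the yolk genes Yp1, Yp2 and Yp3 averaged 39027, 16235 and 15796 at 10,000 R on day 10. The eggshell genes Cp36, Cp38, Vm26Aa and Vm26Ab averaged 0, 3.36, 21.8 and 9.83 there, so yolk genes made up almost all of that sum.

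In unirradiated males the 116 genes together made up a few percent of all normalized counts. Their summed share was 3.87 ± 0.207% at day 2, 2.99 ± 0.291% at day 10 (SD, n = 3 each) and 2.58 ± 0.218% at day 20 (SD, n = 2). Per kilobase of exon, CG12699 had the highest level in day 10 controls with 19967 normalized counts per kb, closely followed by CG33340 with 19171. CG8701 came next at 13435 per kb, CG8565 was lowest with 881, and the median gene had 2522.

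**Figure D1:**
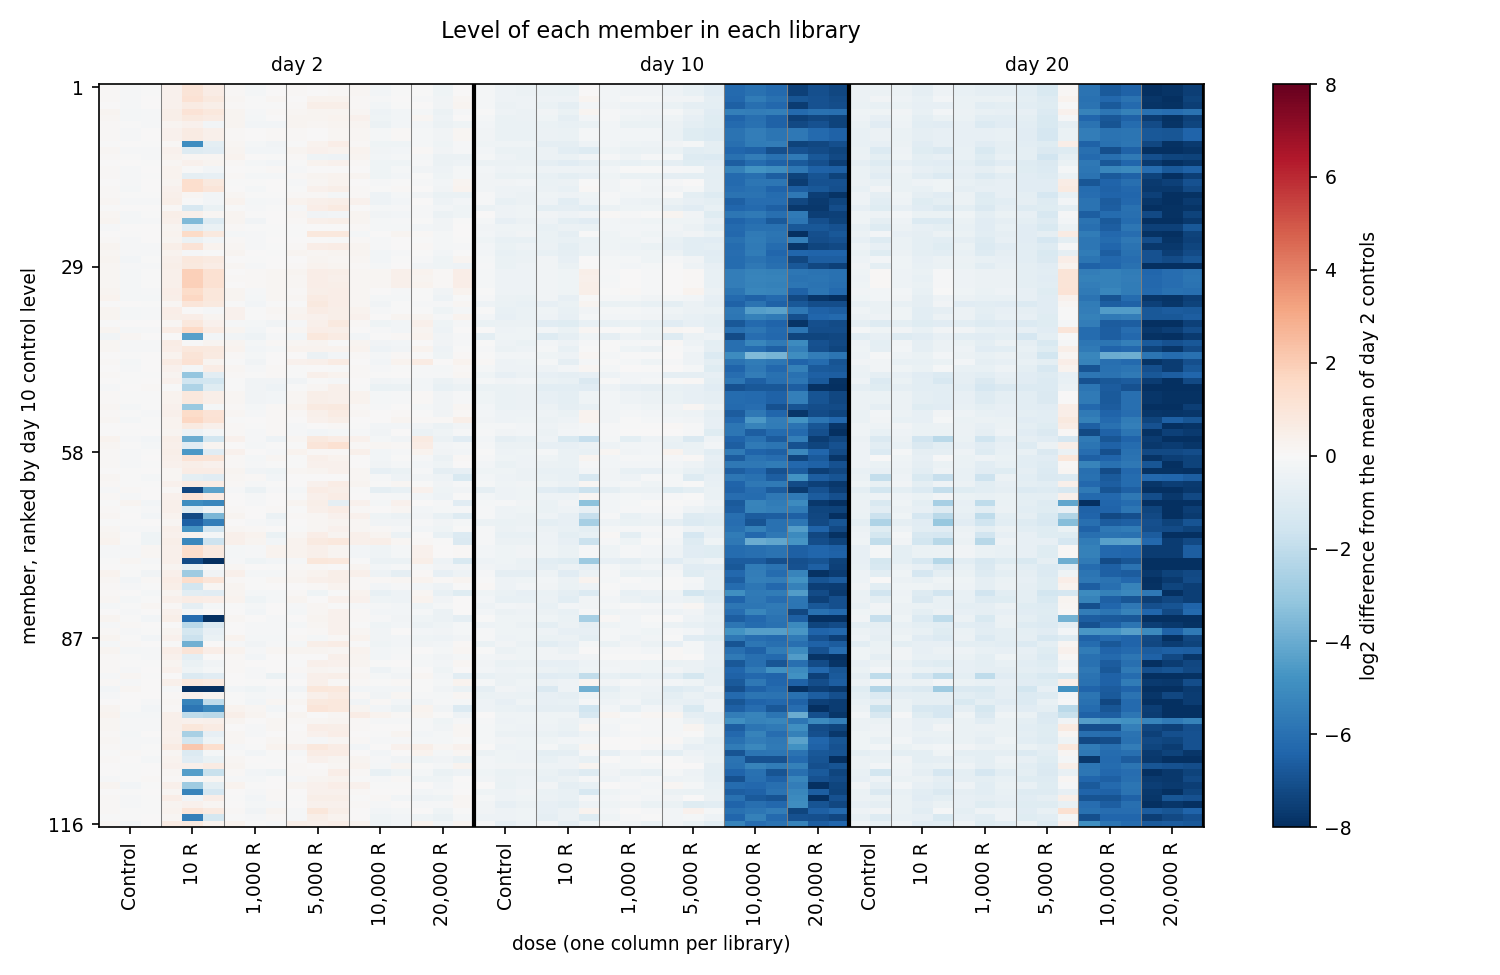
Level of each of the 116 genes (rows, ordered by day 10 control level) in each of the 53 libraries (columns, by day and dose), as the log2 difference from the gene's mean in day 2 controls. All genes are deep blue at 10,000 R and 20,000 R on days 10 and 20 and pale elsewhere, apart from scattered genes in single libraries such as 10 R day 2 b and c. Differences beyond the ends of the colour scale take its end colours.

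At day 10, in the libraries that chose them, the genes kept a median of 1.37% of their control level after 20,000 R. CG31468 kept the least (0.509%) and CG8565 the most (2.96%), just inside the limit, with CG13032 at 2.87% and CG32548 at 2.84%. The nearest CG genes outside were CG13008 at 3.15%, CG11125 at 3.16% and CG8564 at 3.22%. By control level, the nearest inside was CG11635 with 2000.3 normalized counts and the nearest outside CG5217 with 1991. The summed share of the 116 genes was 0.0407 ± 0.0134% after 20,000 R, against 2.99 ± 0.291% in controls (SD, n = 3 each). In whole flies, fewer cells of a type and less RNA per cell cannot be told apart.

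Day 20 gave the same contrast in libraries that the choice did not use. All 116 genes fell at 20,000 R against controls (limma, Benjamini-Hochberg adjusted p at most 0.0001), where 16.9% of all genes tested were called lower. No value of any of the 116 in the 3 irradiated libraries reached a value in the 2 controls, a separation in that direction shown by 26.2% of all genes tested. The median change was -6.92 on the log2 scale, against 0.06 over all genes tested, and the median remaining level was 0.807% of control. Their share of all counts was 0.0258 ± 0.00269% after 20,000 R (SD, n = 3), against 2.58 ± 0.218% in controls (SD, n = 2).

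CG9133, on arm 3L and inseparable here from CG9130, gave the highest counts of the set before correction for length. Its 3 libraries of 20,000 R at day 20 held 145, 157 and 198 normalized counts, against 26151 and 26052 in the 2 controls. The irradiated libraries lay close together and far below both controls, a change of -7.29 ± 0.24 (SE; limma adjusted p = 1.35e-25). CG33340, the second densest transcript per kb, held 122, 114 and 152 normalized counts after 20,000 R at day 20, against 19695 and 18666 in controls. It fell by 7.21 ± 0.21 on the log2 scale (SE; limma adjusted p = 1.9e-26).

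The falls ranged over more than 3 log2 units between genes. CG2871, a single-exon gene on the X chromosome, fell most, with 6.80, 2.43 and 8.90 normalized counts after 20,000 R at day 20, against 2670 and 1596 in controls. Its change of -8.33 ± 1.07 (SE; limma adjusted p = 3.04e-08) carries a wide error, since its controls differ and its remaining values are few reads. CG14718 (-7.59 ± 0.22, SE), CG1288 (-7.54 ± 0.36), CG3092 (-7.53 ± 0.31) and CG15128 (-7.52 ± 0.36) followed, close enough that their order is within error. At the other end, CG33191 on 3R held 71.8, 54.1 and 66.8 normalized counts after 20,000 R at day 20, against 2049 and 1920 in controls. It was the gene with the largest remaining share, 3.24%, and changed by -4.94 ± 0.18 (SE; limma adjusted p = 1.09e-23). CG18335 (-5.15 ± 0.35, SE), CG3345 (-5.20 ± 0.43), CG17666 (-5.50 ± 0.93) and CG31538 (-5.65 ± 0.24) also fell less than the median.

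Genes with older names, CG14740 named here after its values were seen, lay within the range of the set. CG14740, listed as CS, held 12.1, 16.4 and 20.3 normalized counts after 20,000 R at day 20, against 2107 and 2406 in controls, a change of -7.06 ± 0.29 (SE; limma adjusted p = 2.07e-22). CG33791, listed as OGDH and inseparable from CG18170, changed less, by -6.14 ± 0.19 (SE; limma adjusted p = 6.17e-26), with 212, 199 and 275 normalized counts against 15489 and 16674 in controls. The neighbours CG18449, CG2127 and CG8701 on 2R kept 0.582%, 0.717% and 0.796% of control at day 20, CG18449 below the lower quartile of the set and the other two between it and the median.

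**Figure D2:**
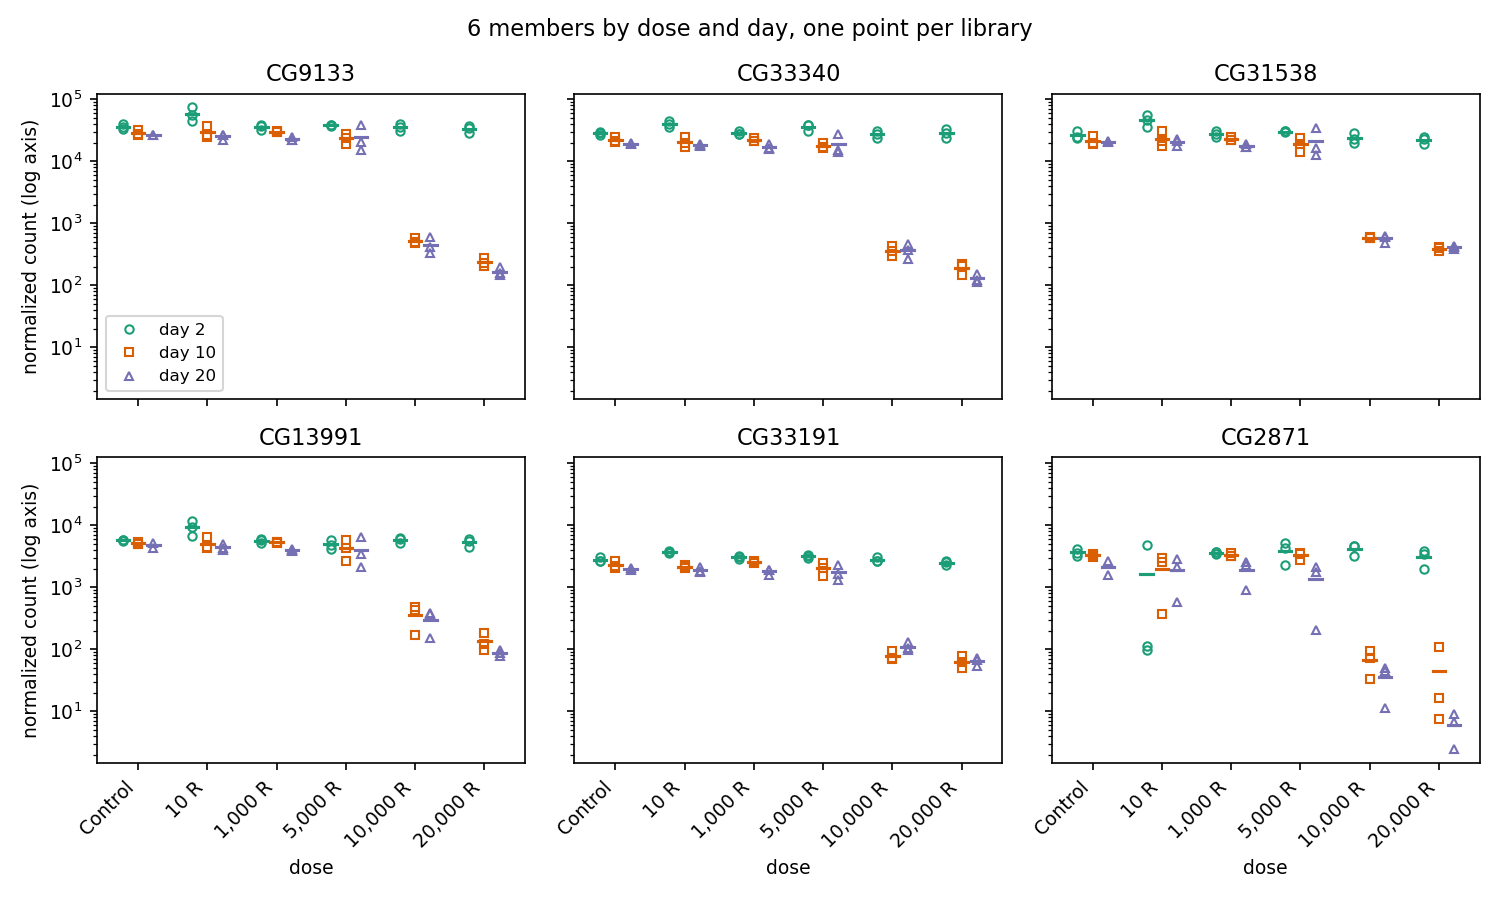
Normalized counts (log axis) of 6 of the genes by dose in 3 days, with a point per library and a bar at each group mean. Levels at 10,000 R and 20,000 R are far below nearly all values of other doses on days 10 and 20 and not on day 2. CG2871 also has low libraries at 10 R (b and c on day 2, c on days 10 and 20) and at 5,000 R (c on day 20).

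The falls of day 20 had no counterpart past the threshold at day 2. At 20,000 R against controls on that day, 0 of the 116 genes were called in either direction by limma (0 with an unadjusted p under 0.05) and 0 by edgeR or DESeq2, where limma called 0.0802% of all genes tested lower and as many higher. The median change was -0.12, and the genes kept a median of 92.7% of control, with a range from 66.0% in CG2267 to 126% in CG1394. CG9133 held 35039, 28770 and 37060 normalized counts after 20,000 R at day 2, against 39210, 33430 and 35749 in controls. These values overlap, as did those of most genes: 28 of the 116 (24.1%) had all 3 irradiated libraries below all 3 controls, against 12.8% of all genes tested. The lowest change was that of CG3345 (-0.64 ± 0.39, SE), with 3610, 3231 and 1850 normalized counts after 20,000 R against 4879, 4321 and 3853 in controls. The highest were CG15459 (0.32 ± 0.34, SE) and CG1394 (0.32 ± 0.26), both on the X chromosome, and neither passed the threshold.

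A test of the difference between days, the 20,000 R response at day 20 minus that at day 2, was below 0 and past the threshold for all 116 genes (limma adjusted p at most 0.008), against 12.6% of all genes tested. Its median was -6.77 on the log2 scale. CG2871 had the strongest value, -8.03, and CG3345 the weakest, -4.56.

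At 10,000 R the genes also averaged near control at day 2 and far below it later. On day 2, 0 of 116 were called by limma (0 with an unadjusted p under 0.05) and 0 by edgeR or DESeq2, against 0.0721% of all genes called lower, with a median of 97.8% of control. On day 20, all 116 fell against controls (limma adjusted p at most 0.00508), against 16.7% of all genes tested, with a median change of -5.60 and a median of 2.11% remaining. All 116 were below controls without overlap on that day, against 24.6% of all genes tested. Day 10 at 10,000 R shares its controls with the choice of genes, so its values are a description only and nothing is read from its counts. A median of 1.92% of control remained there, limma called 116 of 116 lower (19.9% of all genes tested) and 116 lay below controls without overlap (28.1% of all genes tested).

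The step from 5,000 R to 10,000 R separated the levels between groups that the choice did not use. The spread behind the p-values was pooled over all 53 libraries, those of the choice included. On day 10, all 116 genes were lower at 10,000 R than at 5,000 R (limma adjusted p at most 0.00014), against 20.2% of all genes tested, with a median of -5.54 on the log2 scale. On day 20, all 116 were again lower (adjusted p at most 0.00658), against 18.8% of all genes tested, with a median of -5.49. No gene overlapped between the doses on either day, whereas 25.9% of all genes at day 10 and 22.4% at day 20 were lower without overlap. CG9133 held 493, 570 and 482 normalized counts at 10,000 R on day 10, against 27508, 24111 and 19203 at 5,000 R. That change was -5.50 ± 0.21 (SE; limma adjusted p = 4.5e-23).

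A few genes kept several times more than the rest at 10,000 R. CG13991, a single-exon gene of 5629 bases on 2L, held 171, 485 and 430 normalized counts at 10,000 R on day 10, against 5824, 4295 and 2659 at 5,000 R. Library a was well below b and c at 10,000 R, and the change of -3.62 ± 0.32 (SE; limma adjusted p = 3.3e-12) was the smallest of the set at this step. CG9254, also a single-exon gene on 2L, showed the same arrangement, with 71.4, 246 and 211 normalized counts at 10,000 R on day 10, against 3356, 1901 and 3047 at 5,000 R (-4.11 ± 0.77, SE; limma adjusted p = 3.7e-05). CG3517 on 3R did so too, with 145, 361 and 383 at 10,000 R against 5864, 5588 and 5137 at 5,000 R (-4.34 ± 0.26, SE; limma adjusted p = 4.54e-17). For all 3 genes, library a was also the lowest of the 10,000 R libraries at day 20, with 151, 80.0 and 166 normalized counts against 367, 189 and 344 in library b and 381, 195 and 340 in library c. The letters do not link libraries of different days. CG18335 and CG31921 complete the 5 smallest changes of this step, at -4.20 ± 0.31 and -4.40 ± 0.52 (SE). At the other end stood CG15128 (-6.35 ± 0.33, SE), CG5539 (-6.29 ± 0.42), CG31624 (-6.23 ± 0.41), CG31226 (-6.16 ± 1.07) and CG1288 (-6.12 ± 0.33).

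At day 20, genes with a higher control level tended to keep a higher level after irradiation. In part this follows from the choice of genes. That choice capped the share remaining at 20,000 R on an earlier day, while control levels varied widely. The correlations therefore cannot show how closely the levels are tied beyond the choice. On a log2 scale at day 20, Pearson's r across the 116 genes between irradiated and control levels was 0.882 at 20,000 R and 0.920 at 10,000 R, as a description over genes that share libraries and, for 11 of them, reads. From the lower to the upper quartile, the genes kept 0.662% to 1.05% of control at 20,000 R and 1.86% to 2.57% at 10,000 R on day 20.

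**Figure D3:**
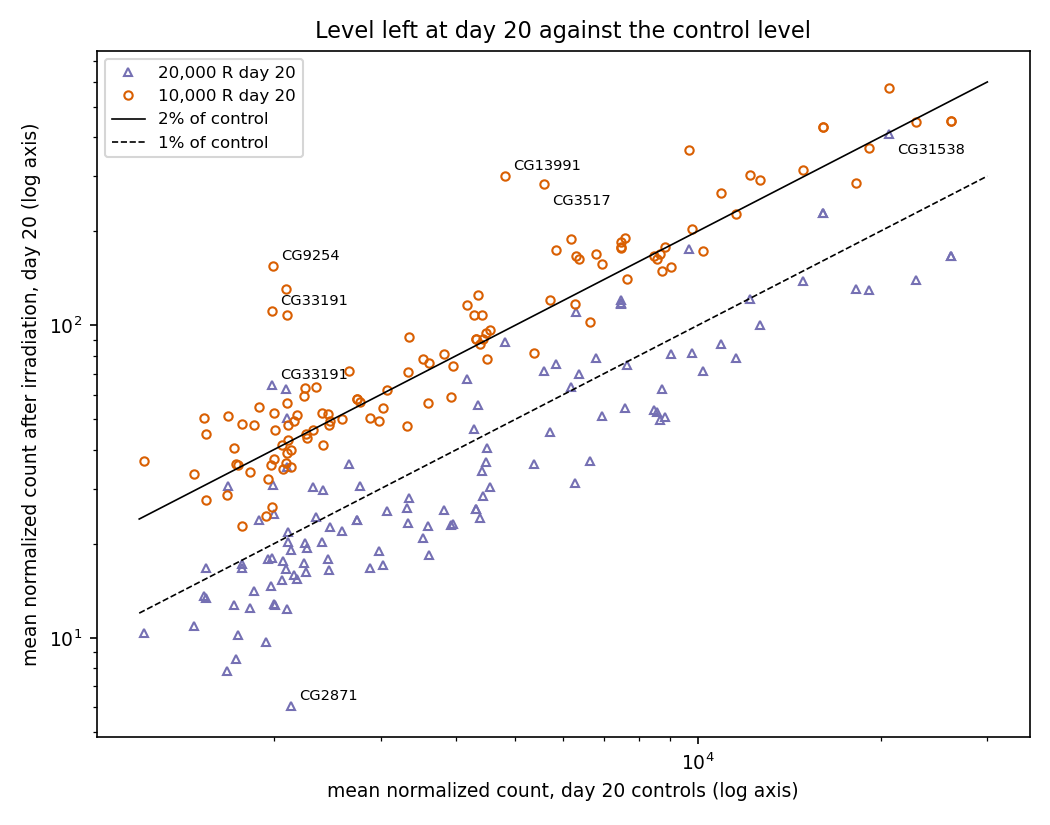
Mean normalized count after irradiation (y, log axis) against the mean of unirradiated controls (x, log axis) at day 20, with a point per gene for 20,000 R (triangles) and for 10,000 R (circles). Most circles follow the line of 2% and most triangles lie below the line of 1%, and CG9254, CG13991 and CG33191 lie above their dose's run of points.

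Levels at day 20 were lower still at 20,000 R than at 10,000 R. All 116 changes were negative with a median of -1.33, and 67 of the 116 genes (100 with an unadjusted p under 0.05) fell past the threshold in limma, against 1.31% of all genes tested. Without overlap between the doses, 108 genes (93.1%) were lower at 20,000 R, against 8.58% of all genes tested. CG14718 gave the smallest p, with 27.2, 31.6 and 35.1 normalized counts at 20,000 R on day 20, against 99.95, 111 and 141 at 10,000 R. It fell by 1.86 ± 0.20 on the log2 scale (SE; limma adjusted p = 1.42e-07). CG3213 (-1.69 ± 0.22, SE) and CG33340 (-1.48 ± 0.19) fell as well. CG31538 on 3R, the gene with one of the highest counts, held 419, 385 and 427 normalized counts at 20,000 R against 633, 483 and 609 at 10,000 R, and its change of -0.48 ± 0.22 (SE) missed the threshold. CG3345 had the smallest difference, -0.13 ± 0.39 (SE). The count depends on which libraries enter the fit: with only the 6 libraries compared in the fit, 0 genes passed in limma (107 with an unadjusted p under 0.05), while edgeR called 65 on all libraries. Without the 9 libraries that stand apart, none of them in these groups, 105 genes fell.

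At doses up to 5,000 R the median gene stayed near control. After 10 R, which entered no comparison, the genes held a median of 112% of control on day 2, 93.7% on day 10 and 95.9% on day 20. Single genes were often far from control at 10 R on day 2. They ran from 31.4% in CG31468 to 285% in CG15459, with quartiles of 72.9% and 159%, and libraries b and c there had few genes above 0. After 1,000 R the medians were 101% on day 2 and 109% on day 10. At day 20, the genes held a median of 98.3% of control at 5,000 R and 90.9% at 1,000 R. In limma 0 of 116 were called at either dose (0 with an unadjusted p under 0.05) and 0 by edgeR or DESeq2, against 0.0401% of all genes called lower and 0.433% called higher at 5,000 R, and 0% and 0.016% at 1,000 R. At 1,000 R, 29 genes were below both controls in all 3 libraries, against 7.86% of all genes tested. At 5,000 R on day 20, library c stood apart with a share of 3.68% and the highest value of its group in 98 of the 116 genes, against 2.18% in library a and 1.93% in library b. The median change there was -0.08, and -0.34 without library c. CG17261 had the highest change at that dose and day, with 1345, 1726 and 6018 normalized counts at 5,000 R, against 1935 and 2072 in controls (0.27 ± 0.36, SE). CG2871 had the lowest, with 2092, 1779 and 205 against 2670 and 1596 in controls (-1.17 ± 1.07, SE). Neither passed the threshold, and in both genes library c lay outside the range of the other libraries of 5,000 R and control.

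Small shifts at 5,000 R were seen on earlier days, none past the threshold. On day 2, 108 of 116 genes averaged above control at 5,000 R, with a median of 119% of control. In limma 0 were called (3 with an unadjusted p under 0.05) and 0 by edgeR or DESeq2, against 0.0481% of all genes called higher. All 3 libraries of 5,000 R lay above all controls for 27 genes (23.3%), against 8.41% of all genes tested. CG34168 was highest, with 4959, 9756 and 11679 normalized counts at 5,000 R against 5665, 4970 and 4453 in controls (0.72 ± 0.30, SE; limma adjusted p = 0.308). Library a overlapped the controls and libraries b and c did not. On day 10, 114 of 116 genes were below their 1,000 R level at 5,000 R, with a median change of -0.24. In limma 0 were called (7 with an unadjusted p under 0.05) and 0 by edgeR or DESeq2, against 0.00802% of all genes called lower, and 32 genes (27.6%) were lower without overlap, against 8.59% of all genes tested. Leaving out library a of 5,000 R raised the called count from 0 to 1 on day 2 and from 0 to 2 on day 10, and without the 9 libraries that stand apart 2 genes were called higher on day 2.

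In unirradiated males all 116 genes averaged lower at day 20 than at day 2, most of them short of the threshold. They held a median of 68.7% of the day 2 level, and the median change was -0.55 on the log2 scale, against -0.22 over all genes tested. Past the threshold in limma were 9 genes (29 with an unadjusted p under 0.05), against 4.28% of all genes tested called lower. Both day 20 libraries lay below all 3 of day 2 for 110 genes (94.8%), against 32.1% of all genes tested. CG8701 on 2R, named after its values were seen, held 12188 and 9687 normalized counts at day 20, against 20323, 20047 and 19502 at day 2. It fell by 0.88 ± 0.21 (SE; limma adjusted p = 0.00546). CG31468 had the largest change, -1.63 ± 1.32 (SE), with 1760 and 685 normalized counts at day 20 against 2975, 3754 and 3499 at day 2, and missed the threshold. Control day 20 b, one of the 6 libraries with few genes above 0, holds the lower of both values, and without it 0 genes were called in limma (7 with an unadjusted p under 0.05) although the median change stayed at -0.46. The count was 5 in edgeR, 29 with only these groups in the fit and 3 without the 9 libraries that stand apart.

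**Figure D4:**
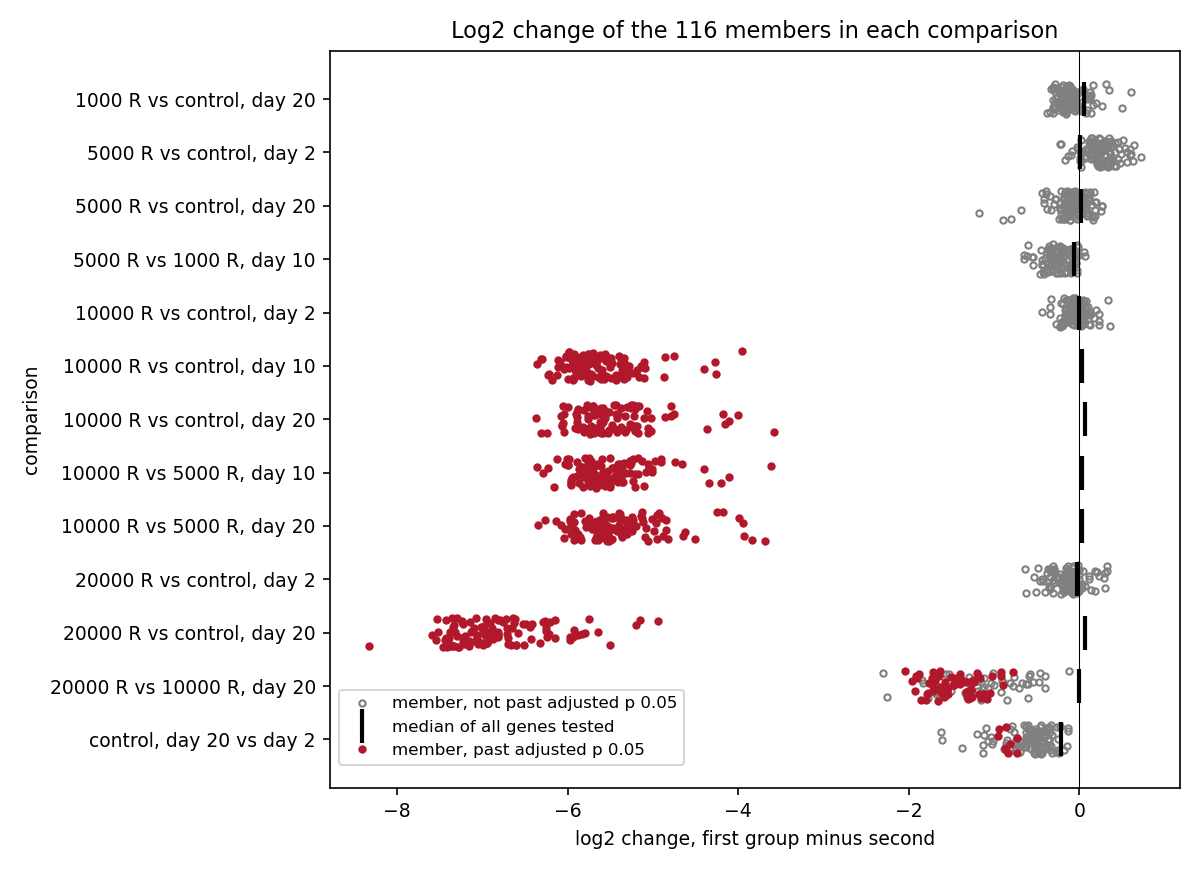
Log2 change (x, the group named first minus the second) of the 116 genes in 13 comparisons (y), with a point per gene, filled where limma's adjusted p was under 0.05, and a bar at the median of all genes tested. All genes are filled and far to the left at 10,000 R and 20,000 R against lower doses or control on days 10 and 20, 67 are filled between the 2 highest doses, 9 with age in controls, and none at day 2 or at doses up to 5,000 R. The comparison of 10,000 R with control at day 10 shares its controls with the choice of genes.

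Genes with testis functions, in lists chosen with earlier results of these data known, fell at day 20 too, and those of the early germ line in part at day 2. Of 13 tested genes of sperm chromatin and the sperm tail, 11 fell at 20,000 R against control on day 20, with a median of -7.06, and all 15 testis-specific paralogs of general enzymes and cell machinery fell, with a median of -7.25. Mst77F, which encodes a linker histone-like protein of sperm chromatin, stood at 37.9 ± 3.30 normalized counts after 20,000 R (SD, n = 3), against 5291 ± 1680 in controls (SD, n = 2), a change of -7.05 ± 0.37 (SE). betaTub85D, the testis beta-tubulin of the meiotic spindle and sperm tail, stood at 88.0 ± 14.5 after 20,000 R against 15143 ± 280 in controls (SD, n = 3 and 2), a change of -7.42 ± 0.29 (SE). Mst77F and betaTub85D met both limits of the choice at day 10 themselves, as did further genes of their lists. They are thus among the 70 genes with another symbol, and the falls of these lists follow in part from the choice. Of the meiotic arrest transcription factors, which switch on spermatocyte genes, 9 of 11 fell with a smaller median of -3.31. topi, a DNA-binding member of that group, stood at 51.4 ± 16.6 after 20,000 R against 531 ± 42.02 in controls (SD, n = 3 and 2; change -3.39 ± 0.40, SE). Of genes of meiotic entry and the early germ line, 5 of 7 fell with a median of -2.81, among them bgcn (-5.69 ± 0.57, SE), a partner of the differentiation factor bam.

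On day 2, when 0 of the 116 genes were called, some genes of meiotic entry and the early germ line already were. Of 7 tested, 1 fell at 20,000 R, 2 at 10,000 R and 3 at 5,000 R against control, with medians of -1.88, -2.17 and -2.10. In edgeR these counts were 1, 2 and 1. Over all 12475 genes tested, limma called 10, 9 and 50 lower in the same comparisons. Rbp4, whose product binds RNA in spermatocytes, averaged 57.8 ± 15.3 normalized counts after 20,000 R against 461 ± 28.1 in controls on day 2 (SD, n = 3 each; change -3.005 ± 0.57, SE; limma adjusted p = 0.00482). The other tested genes of the early germ line list were not called by limma at 20,000 R. Of these, bam, aub and Phf7 changed by -1.88 ± 1.00, -2.37 ± 0.84 and -2.26 ± 0.57 (SE). Smaller changes were those of bgcn (-0.36 ± 0.51, SE), twe (-0.50 ± 0.50) and bol (-0.48 ± 0.29). The meiotic arrest factors had medians of -0.96 at 20,000 R, -0.81 at 10,000 R and -0.84 at 5,000 R on day 2, with 0 of 11 called by limma (2, 3 and 3 lower with an unadjusted p under 0.05) or by edgeR. Sperm chromatin and tail genes and the testis paralogs had medians of -0.01 and -0.25 at 20,000 R on that day, with 0 called by limma (0 with an unadjusted p under 0.05) or by edgeR.

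At 20,000 R against 10,000 R on day 20, 12 of the 15 paralogs and 6 of the 13 sperm genes fell, with medians of -1.45 and -1.51, whereas 0 of the 11 meiotic arrest factors were called by limma (2 higher with an unadjusted p under 0.05) or by edgeR, with a median of 0.22. Of these factors, aly, comr, tomb, sa, nht and Taf12L averaged only 0 to 4.20 normalized counts at 20,000 R on day 20. The other factors tested averaged 51.4 to 384. Near 0, a further fall could hardly be seen.

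Lists for other cells, among them yolk and eggshell genes as markers of females, held few falls beside these, and their part in the result was not tested. At 20,000 R against control on day 20, 2 of 4 genes listed for somatic cells of the testis fell, namely eya (-1.03 ± 0.29, SE) and upd1 (-5.46 ± 0.84). The other genes of that list, tj and zfh1, changed by -0.29 ± 0.58 and 0.03 ± 0.27 (SE). In limma, 0 of 7 accessory gland genes, 2 genes of the ejaculatory duct and bulb, 7 of yolk and eggshell, 5 of neurons and 4 of blood cells were called in that comparison, and edgeR called 0 as well (unadjusted p under 0.05 for 0 genes, except 1 blood cell gene that was higher). Their medians were 2.28 for the accessory gland, 1.74 for the duct and bulb, -0.17 for yolk and eggshell, -0.10 for neurons and 0.64 for blood cells. The accessory gland list summed to 4094 to 5259 normalized counts after 20,000 R at day 20, against 3817 in control library a and 572 in control library b, the one with few genes above 0. The duct and bulb list summed to 46681 to 50792, against 47681 in control library a and 35448 in library b. Of 7 genes of the digestive tract, 1 fell, Jon65Ai (-2.23 ± 0.33, SE), and of 6 muscle genes, 1 rose, Act88F (0.92 ± 0.28, SE). The testis somatic cell list summed to 1108 to 1300 normalized counts after 20,000 R at day 20, against 1733 to 1757 in controls. The sperm chromatin and tail list summed to 323 to 426, against 54829 to 58162.

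The 70 genes with another symbol that met the same limits, and the equally abundant CG genes that did not, are set beside the 116 here. Some of the 70, Mst77F and betaTub85D among them, also stand in the testis lists above. Both sets were formed from the same day 10 libraries, so their contrast with each other follows in part from the choice. At 20,000 R against control on day 20, all 70 fell, with a median of -7.06 and a range from ProtB at -7.93 to TTLL6B at -4.66. Of the 443 CG genes outside the limits, 81 fell and 15 rose, with a median of 0.01. At 20,000 R against 10,000 R on day 20, 40 of the 70 and 4 of the 443 fell. With age in controls, 0 of the 70 genes were called by limma (18 lower with an unadjusted p under 0.05) or by edgeR, and 20 of the 443 were called lower and 80 higher.

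Quantile normalization, another scaling of the same values, moved the median of all genes by over 0.1 in 7 comparisons but turned no direction for the 116 genes. At 20,000 R against control on day 20, the median of all genes moved from 0.06 to 0.33 and that of the 116 from -6.92 to -5.74, and all 116 stayed past the threshold. The share of higher among all called genes was 24.9% in that comparison and 53.7% under quantile normalization. At 10,000 R against 5,000 R it was 26.3% and 64.7% on day 10, and 24.9% and 59.7% on day 20. At 10,000 R against control it was 10.0% and 63.9% on day 10, and 21.04% and 50.4% on day 20. For controls at day 20 against day 2 it was 47.7% and 66.2%, and for the difference of the 20,000 R responses 9.74% and 32.9%.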

How the data were processed

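Per the submitters' processing notes, reads were mapped with TopHat2 2.0 to genome build dm3 and counts were normalized with DESeq. The deposited table holds a normalized signal per gene and library, that is, a read count divided by a size factor. Dividing by the value of 1 read in each column returned whole reads for 100% of values (tolerance 0.1 read), which gave the depth. No filter by strand is stated in the sources used here.

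Log2 values (normalized count + 1) of the 12475 genes averaging at least 10 over the 53 libraries were fitted with limma 3.58.1 (R 4.3.3), with one mean per group and a trended prior, and p-values were adjusted by Benjamini-Hochberg over all genes at 0.05. Fold changes of low genes are understated on this scale. The fit was tested on simulated data with known changes. edgeR 4.0.16 and DESeq2 1.42.0 on recovered reads, another pseudocount, quantile normalization, no filter, only the compared groups, leaving out 9 libraries that stand apart and leaving out each library in turn were the alternatives. Gene structures came from Ensembl release 115, whose genome build differs from dm3, so no coordinates are given. Gene symbols were found in the reference tables for 14347 identifiers (94.3%).

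The members and gene lists were chosen with earlier results of these data known. Named genes were the 10 with the highest day 10 control level, the 5 lowest and 5 highest changes in 4 comparisons, the 5 on each side of the limit, and up to 4 genes per list; others are said to be chosen after their values were seen or carry an older name, a shared read or an extreme value.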

Additional observations from a re-analysis of the deposited data

Results flagged for a closer look

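The response to 20,000 R differed between days for the genes described. At day 20 minus day 2, 116 of 116 genes had a difference below 0 past the threshold in limma's interaction test, with a median of -6.77 on the log2 scale, against 12.6% of all genes tested.

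The 10 R libraries entered no comparison. At day 2 the 116 genes held a mean of 4.39% of normalized counts after 10 R, against 3.87% in controls, with 4.71%, 4.20% and 4.25% in the 3 libraries of 10 R and 4.10%, 3.72% and 3.78% in the controls. All 3 libraries of 10 R lay above all 3 controls, and 2 of them, b and c, are among the libraries with few genes above 0.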

How the results depend on the processing

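No count of calls turned its direction, but 2 medians near 0 did: that of 10,000 R against control on day 2 (-0.04) ran from -0.13 to 0.03 when single libraries were left out, and that of 5,000 R against control on day 20 (-0.08) from -0.34 to 0.11, with 0.00405 in edgeR and -0.45 without the 9 libraries that stand apart. Of 364 counts of the 116 genes under other settings, 351 stayed within 1.5 times and 13 moved. For controls at day 20 against day 2, the 9 genes called lower became 16 with quantile normalization, 29 with only the compared groups, 3 without the 9 libraries that stand apart, 5 in edgeR, and 0 to 13 when single libraries were left out (0 without control day 20 b). For 20,000 R against 10,000 R at day 20, the 67 genes became 0 with only the compared groups and 105 without the 9 libraries, and 50 to 61 when single libraries were left out. At 5,000 R against control on day 2, 0 genes called higher became 2 without the 9 libraries, and 0 to 1 when single libraries were left out. At 5,000 R against 1,000 R on day 10, 0 genes called lower became 0 to 2. At 10,000 R on day 20, 114 to 116 genes were called against control and 115 to 116 against 5,000 R. The cause of these shifts was not tested. The rule gave 71 genes with a limit of 1/64, 215 with a control level of 1000, 56 with 4000, 134 with 1/16, and 128 without library a of 20,000 R at day 10. For 40 named genes, 3469 of 3526 values kept their call and 57 fell below the threshold, 54 of them at 20,000 R against 10,000 R on day 20. No paired analysis was possible because the table's columns carry no replicate numbers. Depth limits the genes with few reads left after 20,000 R, such as CG2871.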

Other observations

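In the 6 libraries with 11213 to 12229 genes above 0, low values were not limited to the 116 genes. Of the 116, 7 (6.03%) were under 50% of their group's libraries outside the 6 in at least 5 of the 6, against 18.2% of all genes tested and 4.998% of genes with a day 10 control level of at least 2000. They were CG17666, CG2267, CG31468 and CG31948 in 6, and CG2871, CG31226 and CG9254 in 5. Under 50% in none of the 6 were 71 of the 116 (61.2%), against 46.7% of all genes tested and 74.4% of those with that control level. The genes were picked by their values, so no test was made.

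CG31468, listed as Tes37, is one of the 4 genes low in all 6. It held 10.3 normalized counts in 10 R day 2 b and 2.54 in 10 R day 2 c, 238 in 10 R day 10 c, 464 in 10 R day 20 c and 119 in 5,000 R day 20 c. In the controls of day 20 it held 1760 in library a and 685 in library b. Within 10 R at day 2, the 116 genes ran from 0.303% (CG31468) to 442% (CG15459) of the control mean in library b and from 0.0744% to 252% of it in library c, with the same genes at both ends, against 93.9% to 160% in library a. Across the 116 genes, Pearson's r between the log2 ratios to control of libraries b and c was 0.817 and Spearman's rho 0.938. Between libraries a and b they were 0.390 and 0.379. These ratios share the day 2 control mean, and the values are a description over genes that share libraries. What sets these libraries apart was not tested.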
